A study of Mus musculus with 9 samples.

Results

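A set of 10 genes that define or mark the epithelial-mesenchymal state was followed in RNA-seq libraries of αTC1 cells, a glucagon-producing line derived from mouse pancreatic alpha cells. They were chosen by symbol, and each matched 1 of the 33212 rows of the deposited gene count table: the transcription factor genes Snai1, Snai2, Zeb1, Zeb2 and Twist1, the filament gene Vim, the surface protein gene Epcam, the splicing regulator genes Esrp1 and Esrp2, and Grhl2, a transcription factor of epithelial cells. Cells were cultured for 7 days with 4 µM EPZ011989 (n = 4 libraries) or with the solvent DMSO (n = 5 libraries), in low-glucose medium in both groups, and polyadenylated RNA was sequenced. EPZ011989 inhibits EZH2, the enzyme that places the repressive methyl mark of the Polycomb complex PRC2 on histone H3. The labels call the libraries biological replicates without saying that they were grown apart, so each p-value is measured against the spread of these libraries, which may be technical. All come from 1 cell line.

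In an epithelial-mesenchymal transition, epithelial cells loosen their junctions and take on filament and matrix genes of mesenchymal cells. SNAI, ZEB and TWIST factors drive the change, and SNAI and ZEB factors repress epithelial genes such as Cdh1 and Epcam through E-box sequences. GRHL2 and the OVOL factors hold the epithelial state and counter ZEB1, while ESRP1 and ESRP2 keep epithelial splice forms. Islet endocrine cells arise from an epithelium, and normal islet cells carry EPCAM and E-cadherin.

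The promoters shown here are those of 2 genes with more counts under EPZ011989, Vim and Snai1, and of 2 with no count in any library, Epcam and Twist1. They are shown because SNAI and ZEB repressors bind an E-box of this kind. Each window is the 250 bases before the RefSeq start of transcription (GRCm38.p6), with the E-box CACCTG, read on both strands and so also as CAGGTG, in capitals.
Vim (plus strand, chr2:13574061-13574310): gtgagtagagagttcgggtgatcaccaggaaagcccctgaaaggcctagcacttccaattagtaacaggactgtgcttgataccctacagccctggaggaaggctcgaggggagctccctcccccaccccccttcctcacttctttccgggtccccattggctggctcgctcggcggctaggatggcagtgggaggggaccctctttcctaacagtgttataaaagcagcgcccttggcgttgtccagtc
Snai1 (plus strand, chr2:167537945-167538194): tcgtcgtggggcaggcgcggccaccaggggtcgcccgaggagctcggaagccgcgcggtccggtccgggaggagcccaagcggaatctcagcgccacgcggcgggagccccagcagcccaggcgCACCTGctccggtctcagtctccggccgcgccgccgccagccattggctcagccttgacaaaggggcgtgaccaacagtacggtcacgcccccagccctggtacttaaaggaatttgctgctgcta
Epcam (plus strand, chr17:87635729-87635978): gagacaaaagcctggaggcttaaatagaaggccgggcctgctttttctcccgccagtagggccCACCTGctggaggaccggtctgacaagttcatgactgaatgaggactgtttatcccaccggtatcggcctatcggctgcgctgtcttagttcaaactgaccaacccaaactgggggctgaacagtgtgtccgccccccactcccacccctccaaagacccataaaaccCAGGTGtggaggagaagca
Twist1 (plus strand, chr12:33957421-33957670): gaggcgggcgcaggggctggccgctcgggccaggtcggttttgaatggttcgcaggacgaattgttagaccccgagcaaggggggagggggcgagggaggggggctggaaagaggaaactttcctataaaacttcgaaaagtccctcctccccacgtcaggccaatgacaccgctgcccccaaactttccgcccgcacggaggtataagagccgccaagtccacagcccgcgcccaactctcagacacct
The Vim window lies inside the Vim gene as GENCODE annotates it, which starts further upstream, and the other 3 end at the base before the GENCODE gene start. The Snai1 window held 1 E-box, whose first base lay 126 bases before the start. The Epcam window held 2, at 187 and 19 bases before the start, and the Vim and Twist1 windows held none. Of 32851 such windows in the RefSeq table, 17.2% held this E-box. CG dinucleotides numbered 27 in the Snai1 window, 18 in Twist1, 8 in Vim and 8 in Epcam, against a median of 6 over all windows. Thus 91.4% of windows had fewer than Snai1 and 57% had fewer than Vim or Epcam. The same table held 4 start sites of Zeb2, none with the E-box. Snai2, Zeb1, Esrp1, Esrp2 and Grhl2 were not matched.

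Deposited counts per library summed to between 60274140 and 74651782. Levels are given as CPM, counts scaled to a common library size with TMM factors, and a count of 12 in a library equals 0.158 to 0.203 CPM. That count is used as a cautious floor, 3 fragments if a fragment gives as many as 4 counts, and counts below it are given as they stand. Of the 10 genes, 5 passed the filter on low counts (Vim, Snai2, Zeb1, Zeb2 and Grhl2) and were tested among 14754 genes. In that fit 16.2% of all genes were called higher and 7.96% lower with EPZ011989, at a Benjamini-Hochberg adjusted p under 0.05. Vim and Snai2 were called higher and none of the 10 was called lower, so 2 of 10, or 2 of the 5 tested, were called against that background. Vim passed the filter through its EPZ011989 libraries alone, so these shares are descriptions. The alpha cell label held: Gcg, the glucagon gene, averaged 18633 ± 2338 CPM with EPZ011989 and 19280 ± 804 CPM with DMSO (SD, n = 4 and n = 5 libraries).

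αTC1 cells carried the transcripts of the mesenchymal-type factors Snai2, Zeb1 and Zeb2 and almost none of the epithelial markers of this set, in both groups. Per kilobase of merged exon, Snai2 was the highest of the 10 genes in both groups, at 10 ± 0.383 CPM per kilobase with EPZ011989 and 6.69 ± 0.904 with DMSO. Zeb1 followed at 5.01 ± 1.23 and 4.39 ± 0.42 CPM per kilobase, in that order of groups. In both groups the lowest Snai2 library lay above the highest Zeb1 library. Zeb2 was lower, at 0.364 ± 0.103 CPM per kilobase with EPZ011989 and 0.464 ± 0.0505 with DMSO. With EPZ011989, Vim reached 0.443 ± 0.0588 CPM per kilobase, a range that overlapped that of Zeb2, while with DMSO it was at 0.0194 ± 0.018, overlapping Grhl2. The other 6 genes reached at most 0.0952 CPM per kilobase in any library, the highest Snai1 value. Merged exons cover all annotated transcripts of a gene, so a gene with long rare transcripts is understated.

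**Figure D1:**
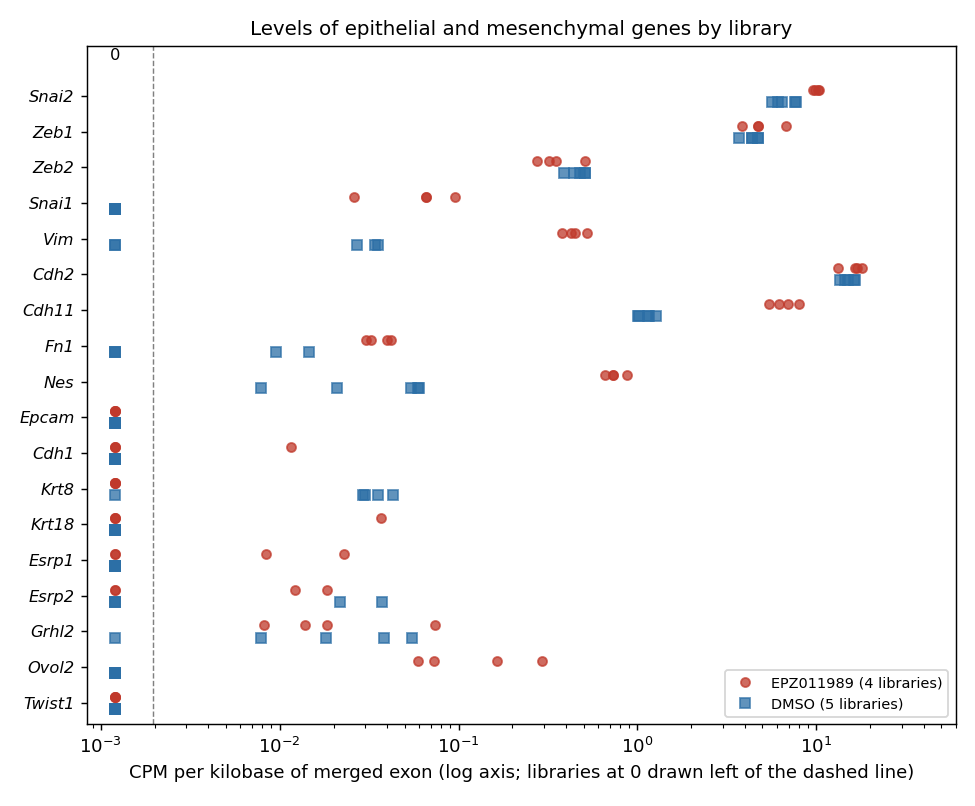
Level of each gene in CPM per kilobase of merged exon (log axis), with 1 point per library, EPZ011989 as circles above and DMSO as squares below. Libraries with a count of 0 sit left of the dashed line. Snai2, Zeb1 and Cdh2 lie above 3 CPM per kilobase in both groups, while Epcam and Twist1 are at 0 in all 9 libraries.

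Vim encodes vimentin, the intermediate filament of mesenchymal cells (chromosome 2, 13573927 to 13582826, GRCm38). It was at 1.8, 2.01, 2.12 and 2.47 CPM in the EPZ011989 libraries, against 0.162, 0, 0, 0.169 and 0.129 CPM in the DMSO libraries. Every EPZ011989 library was above every DMSO library, and all DMSO values lay at or below the floor, with 31 counts in all. Vim was called higher, with adjusted p = 0.000872 from edgeR's quasi-likelihood test. The fitted log2 fold change was 4.50 ± 0.70 (SE), and its size rests on those few DMSO counts. Against a DMSO level set at the floor, the EPZ011989 mean was 12 times as high. Vim stayed called under all 18 alternative settings, with adjusted p from 7.1e-11 in DESeq2 to 0.0191 in edgeR. Vim passed the filter through the EPZ011989 libraries alone, so its p-values are given as descriptions beside the library values. In bulk RNA, a few cells with much vimentin transcript and many cells with little cannot be told apart.

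Snai2 encodes SLUG, a zinc finger repressor of epithelial genes (chromosome 16, 14705852 to 14709385). Its level was 20.7, 21, 19.9 and 19.3 CPM with EPZ011989, against 15.4, 15.5, 13, 12.3 and 11.5 CPM with DMSO. The groups did not overlap, as held for 16.1% of all tested genes in this direction. Snai2 rose 1.49-fold, a log2 fold change of 0.58 ± 0.10 (SE), with adjusted p = 0.00198 in edgeR. It stayed called under all 18 alternative settings (log2 fold change 0.51 to 0.63, highest adjusted p = 0.0176, edgeR and DESeq2 fits). The spread among EPZ011989 libraries was small (SD 0.775 CPM) beside that of Zeb1 (SD 12.6 CPM).

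Snai1 encodes SNAIL, the paralog of SLUG and an early trigger of the transition (chromosome 2, 167538195 to 167542814). It had 8, 3, 8 and 11 counts in the EPZ011989 libraries and 0 counts in each of the 5 DMSO libraries. These counts correspond to 0.106, 0.0422, 0.106 and 0.154 CPM, all below the floor, so no fold is given and the gene did not pass the filter. All 4 treated libraries had counts and no control library did. With no filter, Snai1 was called higher (adjusted p = 0.0302, edgeR), and DESeq2 also called it (adjusted p = 0.00781). Both fits take the counts as they stand and do not allow for several counts per fragment, so no rise of Snai1 is read from them. Twist1, which encodes a basic helix-loop-helix factor of mesoderm, had 0 counts in all 9 libraries.

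Zeb1 encodes a zinc finger-homeodomain repressor of Cdh1 and of the miR-200 family (chromosome 18, 5591860 to 5775467). Its level was 48.4, 69.3, 48.7 and 39.4 CPM with EPZ011989, against 48.7, 45.1, 48.4, 45.1 and 38 CPM with DMSO. The groups overlapped, and the log2 fold change of 0.19 ± 0.14 (SE) did not pass (adjusted p = 0.399, edgeR). Zeb2 encodes its paralog, which acts on many of the same targets (chromosome 2, 44983632 to 45117395). Zeb2 was at 6.42, 10.2, 7.02 and 5.45 CPM with EPZ011989, against 10.1, 10.1, 8.8, 9.47 and 7.74 CPM with DMSO. EPZ011989 library 2 stood just above all DMSO libraries, and the other 3 below all of them. The log2 fold change of -0.35 ± 0.17 (SE) did not pass, with adjusted p = 0.178 in edgeR. Without EPZ011989 replicate 2 the call was reached, at -0.56 (adjusted p = 0.00625, edgeR), and without replicates 2 and 4 at -0.46 (adjusted p = 0.0287, edgeR). The fit without replicate 2 called 2377 genes lower in place of 1174.

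Library 2 was the highest and library 4 the lowest of the EPZ011989 group for both ZEB genes. Among the 4859 tested genes with the longest merged exons, the median log2 difference from the other EPZ011989 libraries was 0.26 in library 2 and -0.21 in library 4. Merged exons are 10266 bases long for Zeb1 and 19942 for Zeb2, longer than those of 90% and 98% of tested genes. The part of this length trend in the ZEB values was not tested. Snai2, whose merged exons of 2021 bases exceed those of 18% of tested genes, did not stand apart in library 2. Exons of Zeb1 share 198 bases with Gm10125, at 0.531 and 0.181 CPM with EPZ011989 and DMSO. Those of Zeb2 share 653 bases with Zeb2os, at 0.0134 and 0.00572 CPM.

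**Figure D2:**
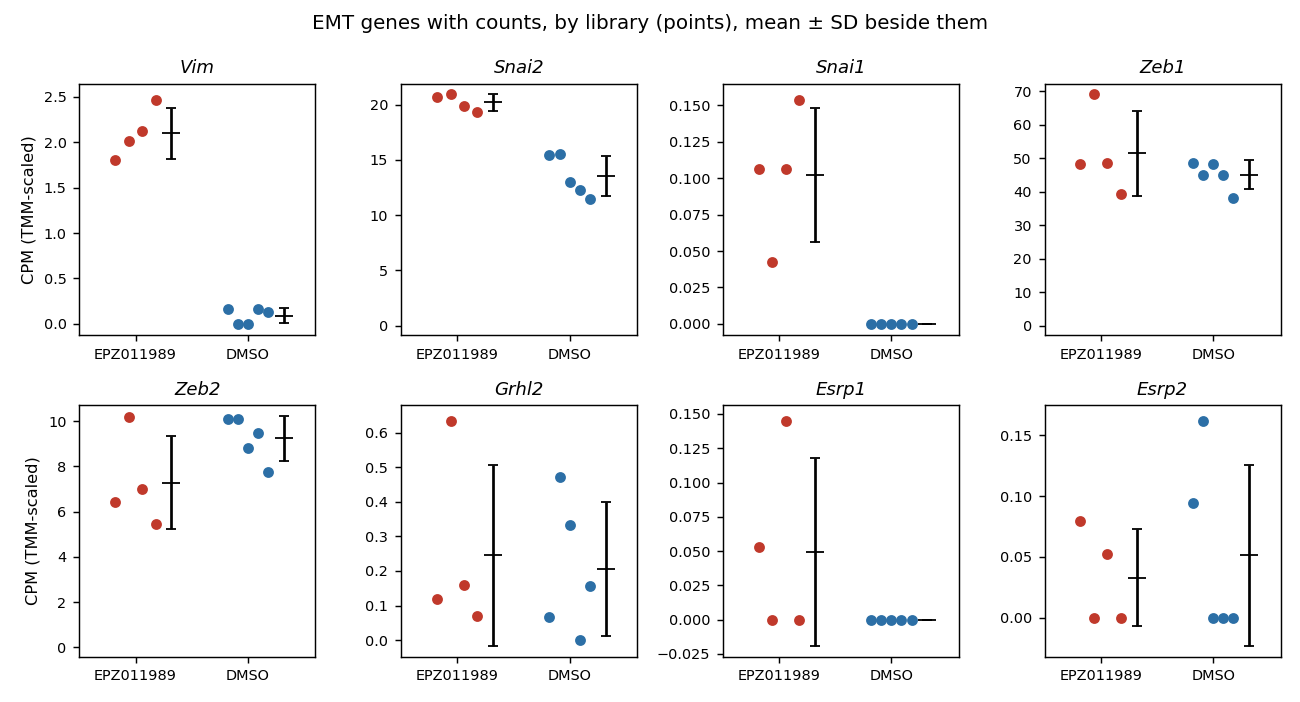
CPM of the 8 genes with any count, by library (points), with mean and SD beside each group, EPZ011989 left and DMSO right. Each panel has its own linear axis, and the groups are apart for Vim, Snai2 and Snai1 and overlap for the others.

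A ratio of genes within a library does not depend on how libraries are scaled. The 4 ratios computed were chosen after the levels had been seen, a choice that their p-values do not allow for. Zeb1 over Zeb2, each per exon base, was 14.7, 13.2, 13.5 and 14.1 in the EPZ011989 libraries, against 9.34, 8.66, 10.7, 9.26 and 9.53 in the DMSO libraries. The groups did not overlap, library 2 included, and the mean ratio was 13.9 ± 0.639 with EPZ011989 and 9.49 ± 0.736 with DMSO (SD). The ratio was thus 1.46 times as high with EPZ011989. A two-sided exact permutation test over libraries gave p = 0.0159, the smallest that 4 against 5 allow (adjusted p = 0.0212 over the 4 ratios). Snai2 over Zeb2 and Cdh2 over Cdh11, whose directions earlier calls had set, tied at this p and eased the adjustment. Both p-values are therefore given as descriptions. Snai2 over Zeb2 averaged 28.8 ± 6.32 with EPZ011989 and 14.4 ± 0.911 with DMSO, also without overlap. Zeb1 over Snai2 averaged 0.499 ± 0.107 and 0.661 ± 0.0671, in that order of groups, with overlap. Both ratios with Snai2 are given as descriptions, since Snai2 had already been called higher. The ratio of the cadherin genes Cdh2 to Cdh11 averaged 2.44 ± 0.169 with EPZ011989 and 13.5 ± 0.596 with DMSO, given as a description since the call of Cdh11 already fixes its direction.

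**Figure D3:**
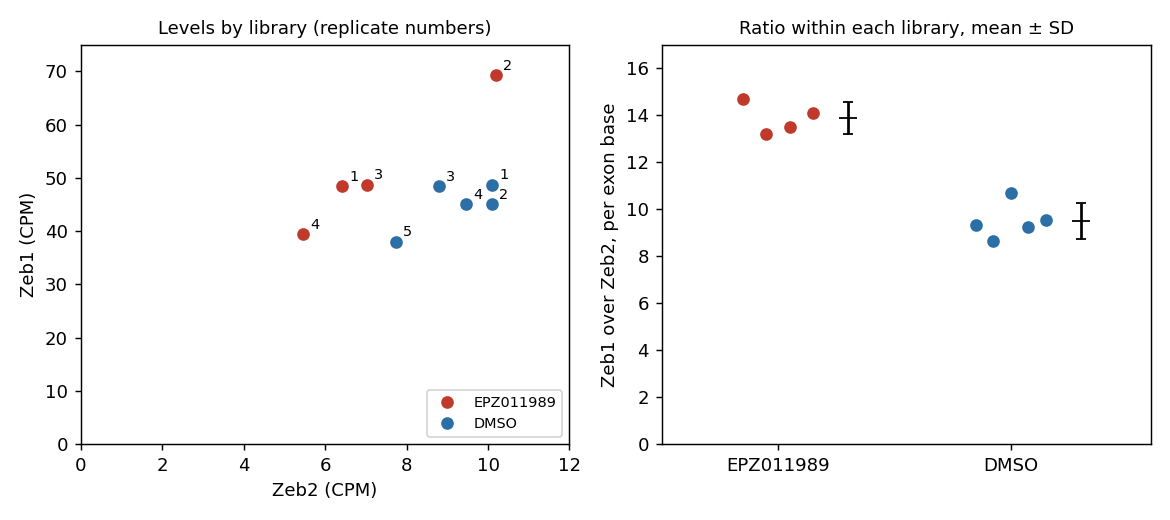
Left, Zeb1 against Zeb2 in CPM for each library, labelled by replicate number. Right, the ratio of Zeb1 to Zeb2 per exon base in each library with mean and SD, EPZ011989 left at 13.2 to 14.7 and DMSO right at 8.66 to 10.7.

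The epithelial genes of the set, Epcam, Esrp1, Esrp2 and Grhl2, were at or near 0 in both groups. Other epithelial genes, given below, were not all so low. Epcam encodes an adhesion protein of epithelial cells (chromosome 17, 87635979 to 87651129), and it had 0 counts in all 9 libraries. At 3 fragments this allows up to 0.158 to 0.203 CPM per library, so a level below that could have gone without a count. Esrp1 (chromosome 4, 11331933 to 11386783) had 4 and 11 counts in EPZ011989 libraries 1 and 3 and 0 in the other 7 libraries. With no filter it did not pass (adjusted p = 0.138, edgeR). Esrp2 (chromosome 8, 106130319 to 106136974) was at 0.0795, 0, 0.0528 and 0 CPM with EPZ011989 and at 0.0947, 0.162, 0, 0 and 0 CPM with DMSO. Its exons share 219 bases with Nfatc3, at 65.2 CPM with EPZ011989 and 70.6 CPM with DMSO, and no source used here says whether reads were assigned by strand. Values of both Esrp genes lay below the floor in every library.

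Grhl2 (chromosome 15, 37233036 to 37363569) was at 0.119, 0.633, 0.158 and 0.0702 CPM with EPZ011989, against 0.0677, 0.471, 0.332, 0 and 0.157 CPM with DMSO. The groups overlapped, and the log2 fold change of 0.24 ± 0.94 (SE) did not pass (adjusted p = 0.896, edgeR). Its sign turned without EPZ011989 replicate 2, at -0.83, and without DMSO replicate 1 or 4. No direction can be read for Grhl2 at this depth.

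The genes with the most similar profiles were sought among 9765 named genes averaging 5 CPM or more, by the root-mean-square difference of log2 CPM over the 9 libraries after centring. For Vim these were Lcp2 (0.732), Rtn1 (0.771) and Tmeff2 (0.859). Lcp2, an adaptor protein of immune cell receptors, averaged 12.5 ± 0.413 CPM with EPZ011989 and 0.615 ± 0.22 CPM with DMSO. For Snai2 the closest were Lpar2 (0.0663), Ccdc71l (0.0667) and Il17ra (0.0879). Lpar2, a receptor for lysophosphatidic acid, averaged 7.86 ± 0.427 CPM with EPZ011989 and 5.56 ± 0.844 CPM with DMSO. For Zeb2 they were Hus1 (0.0816), Eif2ak2 (0.0853) and Sepsecs (0.0875).

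Other factors of the mesenchymal program included 4 that rose. Of 19 listed genes, 18 matched a row, 11 passed the filter, 4 rose and 0 fell. The median log2 fold change was 0.10, against 0.03 over all tested genes, of which 16.2% rose. Prrx1, a homeobox factor of mesenchyme, was at 1.44, 2.67, 1.07 and 1.52 CPM with EPZ011989, against 0.108, 0.0737, 0, 0 and 0 CPM with DMSO. Prrx1 rose (adjusted p = 0.000606, edgeR), and its EPZ011989 mean was 9.53 times the DMSO floor. Tead4, a partner of YAP, averaged 0.305 ± 0.0458 CPM with EPZ011989 and 0.0135 ± 0.0302 CPM with DMSO (adjusted p = 0.00581, edgeR). Both had at most 8 counts in any DMSO library and passed the filter through the EPZ011989 libraries. Their p-values are thus given as descriptions, and the size of their change is not well set. The EPZ011989 mean of Tead4 was 1.74 times the DMSO floor. With a replicate block in the fit Tead4 lost the call (adjusted p = 0.0627, edgeR), and 1 gene of the list was called higher. Nfatc1, a calcium-regulated factor, was called too (adjusted p = 0.049, edgeR), and lost the call without DMSO replicate 2, 3, 4 or 5 and without any 1 of the EPZ011989 replicates. In the fits without DMSO replicate 2, 3, 4 or 5 or without EPZ011989 replicate 2 or 3, 2 genes of the list were called higher, and without EPZ011989 replicate 2, 1 was called lower.

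Mesenchymal structure genes included 14 that rose. Of 38 listed, 23 passed the filter, 14 rose and 0 fell, with a median log2 fold change of 1.92, or 1.83 with the 3 genes at 0 in every DMSO library set to their lower bound. Genes at 0 with DMSO enter the test through their treated libraries, and 33.4% of all tested genes averaging 1 to 10 CPM rose. Others were below the floor in every DMSO library but not at 0, such as Mmp2 and Col5a1, averaging 0.0249 and 0.0118 CPM there. These were not set to a bound, so the size of either median is not well set. Cdh11, a cadherin of mesenchymal cells, was at 62, 71.3, 55.4 and 48.3 CPM with EPZ011989, against 11.3, 8.97, 10.3, 10.2 and 9.13 CPM with DMSO (adjusted p = 4.21e-07, edgeR). Its groups were far apart, with a log2 fold change of 2.57 ± 0.12 (SE). Cdh2, the N-cadherin gene whose gain marks the transition, was at 130 ± 16.9 CPM with EPZ011989 and 122 ± 9.23 CPM with DMSO and did not pass (adjusted p = 0.57, edgeR). Nes, the filament gene nestin, averaged 4.8 ± 0.558 CPM with EPZ011989 and 0.26 ± 0.156 CPM with DMSO (adjusted p = 3.35e-05, edgeR). Pdgfra, a growth factor receptor of mesenchymal cells, averaged 27.6 ± 5.88 CPM with EPZ011989 and 7.29 ± 0.964 CPM with DMSO (adjusted p = 6.84e-06, edgeR). Thy1, a surface protein of fibroblasts and neurons, was at 3.45, 2.55, 2.88 and 4.24 CPM with EPZ011989 and at 0 in all 5 DMSO libraries, at least 18.6-fold higher against the floor of 12 counts per library. Fn1, which encodes fibronectin, averaged 0.422 ± 0.065 CPM with EPZ011989 and 0.0564 ± 0.0802 CPM with DMSO without passing (adjusted p = 0.0514, edgeR). It passed without DMSO replicate 5 (adjusted p = 0.0222), with upper-quartile factors (0.0489), with library size alone (0.0488) and in DESeq2 (0.0365). Lox and Mmp14, both enzymes of the matrix, had 0 counts in all 9 libraries.

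Most epithelial structure genes stayed low in both groups, while some junction genes rose. Cdh1, which encodes E-cadherin, had 4 counts in 1 EPZ011989 library and 0 in the other 8. Krt18 had 4 counts in 1 EPZ011989 library, and Krt8 had 0 counts in every EPZ011989 library and 4 or 5 counts in 4 of 5 DMSO libraries. Of 38 epithelial structure genes, 29 stayed under 1 CPM in every EPZ011989 library and 30 in every DMSO library. Among the 16 that passed the filter, 6 rose and 0 fell, beside 16.2% of all tested genes that rose. Their median log2 fold change was 0.64, and 2 of them were called lower without EPZ011989 replicate 2. Llgl2, a polarity protein, averaged 8.47 ± 1.71 CPM with EPZ011989 and 3.41 ± 0.42 CPM with DMSO. Cgn, which encodes cingulin of tight junctions, averaged 8.04 ± 1.16 CPM with EPZ011989 and 3.68 ± 0.671 CPM with DMSO. Itgb4, the integrin chain of hemidesmosomes, averaged 2.35 ± 0.542 CPM with EPZ011989 and 0.244 ± 0.157 CPM with DMSO. These 3 were called with adjusted p = 0.000167, 0.000428 and 0.00239 (edgeR).

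Of 15 other transcription factors of epithelia, 9 passed the filter, 6 rose and 0 fell, beside 16.2% of all tested genes that rose. Their median log2 fold change was 0.67. Klf4 averaged 68 ± 3.07 CPM with EPZ011989 and 42.8 ± 2.82 CPM with DMSO (adjusted p = 5.49e-05, edgeR), and Klf5 4.04 ± 0.413 and 2.12 ± 0.302 CPM, in that order. Ehf, an ETS factor, averaged 4.96 ± 1.06 CPM with EPZ011989 and 3.08 ± 0.391 CPM with DMSO (adjusted p = 0.0137, edgeR), and lost the call without EPZ011989 replicate 1. Elf3, its relative, was at 19.5, 12.7, 22.7 and 24 CPM with EPZ011989, against 11, 12.7, 11.7, 13.6 and 13.6 CPM with DMSO, where library 2 alone overlapped the DMSO range (adjusted p = 0.014, edgeR). It lost the call without EPZ011989 replicate 3, and without replicate 1 the list had 3 genes called in place of 6. Ovol2, a repressor of Zeb1, had 26, 11, 47 and 9 counts in the EPZ011989 libraries and 0 in the 5 DMSO libraries. Its mean of 0.311 ± 0.227 CPM with EPZ011989 was 1.77 times the DMSO floor, EPZ011989 libraries 2 and 4 lay below that floor themselves, and it did not pass the filter. Grhl1, the paralog of Grhl2, was at 12.6 ± 2.21 CPM with EPZ011989 and 14.9 ± 2.29 CPM with DMSO and did not pass (adjusted p = 0.275, edgeR).

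**Figure D4:**
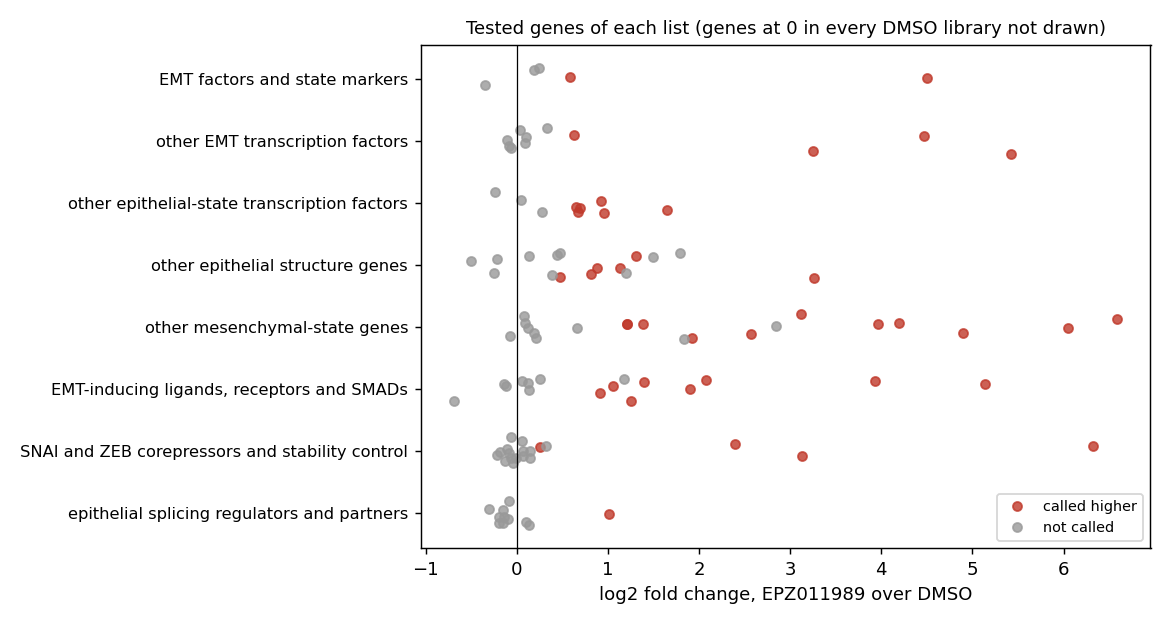
Log2 fold change, EPZ011989 over DMSO, of each tested gene (points) in 8 lists, in red where called higher and in grey where not called. Genes at 0 in every DMSO library are not drawn, and no listed gene was called lower.

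Genes for ligands, receptors and SMADs linked to the transition included 9 that rose. The list was not split by whether a gene promotes or opposes the transition. Of 23 ligand, receptor and SMAD genes, 17 passed the filter, 9 rose and 0 fell, beside 16.2% of all tested genes that rose. Their median log2 fold change was 1.06, and 2 of them were called lower without EPZ011989 replicate 2. Tgfb2 was at 5.63, 6.74, 6.13 and 6.51 CPM with EPZ011989, against 1.58, 1.96, 1.45, 1.25 and 1.13 CPM with DMSO (adjusted p = 9.95e-06, edgeR). The groups did not overlap, and the log2 fold change was 2.08 ± 0.17 (SE). Its receptor gene Tgfbr1 did not pass, at 75.5 ± 27.7 and 63.4 ± 4.37 CPM, and Tgfbr2 stayed under the floor in every library. Fgfr1 averaged 3.31 ± 0.291 CPM with EPZ011989 and 0.215 ± 0.084 CPM with DMSO, Bmp7 15.7 ± 0.944 and 0.44 ± 0.356 CPM, and Notch2 6.66 ± 1.21 and 2.53 ± 0.308 CPM, in that order of groups (adjusted p = 5.04e-06, 5.29e-05 and 7.49e-05, edgeR).

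Most genes for partners of SNAI and ZEB proteins did not pass. Of 19 corepressor and stability genes all passed the filter, 4 rose and 0 fell, a share near the 16.2% of all tested genes that rose. Their median log2 fold change was 0.06. Ctbp1, the corepressor of ZEB1, was at 296 ± 32.1 CPM with EPZ011989 and 298 ± 10.1 CPM with DMSO (adjusted p = 0.973, edgeR). Pak1, a kinase that phosphorylates SNAIL, averaged 14.6 ± 2.67 CPM with EPZ011989 and 0.177 ± 0.182 CPM with DMSO, and Lats2, a kinase that acts on SNAIL and YAP, 2.45 ± 0.905 and 0.277 ± 0.181 CPM (adjusted p = 2.47e-05 and 0.000734, edgeR). Lats2 exons share 2955 bases with Gm49361. Ajuba and Siah1a were the other 2 (adjusted p = 0.0315 and 0.0353, edgeR). Both lost the call without DMSO replicate 1, 3 or 5 and without EPZ011989 replicate 1 or 3, which leaves 2 called. Ajuba also lost it without EPZ011989 replicate 2, and Siah1a without DMSO replicate 4 or EPZ011989 replicate 4. In the fit without EPZ011989 replicate 2, 2 genes of the list were called lower. In that fit Hdac1, Hdac2 and Kdm1a gained a call as higher (adjusted p = 0.0289, 0.0499 and 0.0167, edgeR). Of 13 splicing regulators, 12 matched a row, 11 were tested, 1 rose and 0 fell, with a median log2 fold change of -0.14, and 6 were called lower without EPZ011989 replicate 2. This was Nova2, a neuronal splicing factor, at 29.7 ± 1.37 CPM with EPZ011989 and 14.7 ± 0.569 CPM with DMSO (adjusted p = 3.15e-06, edgeR), whose exons share 2652 bases with Gm26821. Rbfox2, which with the ESRP proteins sets splice forms in the transition, was at 132 ± 13.5 and 123 ± 7.15 CPM and did not pass.

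Some markers of other cells were higher beside these genes. The 12 fibroblast markers, 9 of which are also among the mesenchymal genes, summed to 31.5 to 43.4 CPM in EPZ011989 libraries and 7.38 to 10.2 CPM in DMSO libraries, and 5 of the 6 tested rose. Most of the sum was Pdgfra, at 27.6 ± 5.88 CPM with EPZ011989 and 7.29 ± 0.964 CPM with DMSO, while Dcn and Lum, which mark fibroblasts, had counts in 1 EPZ011989 library each. The 8 endothelial markers summed to 3.79 to 4.61 CPM and 0.886 to 2.06 CPM, with 3 of 4 tested higher, and the 8 macrophage and leukocyte markers to 7.08 to 9.77 CPM and 4.58 to 7.07 CPM, with 1 of 3 higher, each with the EPZ011989 range first. Of all tested genes 16.2% rose, with 20.8% of those averaging under 1 CPM and 33.4% of those at 1 to 10 CPM. Thy1, Fbln1 and Kdr had 0 counts in every DMSO library and entered the test through their treated libraries. The macrophage and leukocyte marker that rose was Lyz2, the lysozyme gene of myeloid cells. It was at 3.76 ± 0.762 CPM with EPZ011989 and 0.289 ± 0.249 CPM with DMSO (adjusted p = 0.000398, edgeR). The other tested markers did not pass, Cd14 at 3.58 ± 0.521 and 4.82 ± 0.689 CPM and Cd68 at 0.995 ± 0.205 and 1.07 ± 0.167 CPM, in the same order of groups. Without DMSO replicate 3, 1 of the macrophage and leukocyte markers was called lower. Ptprc, the defining leukocyte gene, had 4 counts in 1 EPZ011989 library and 0 elsewhere. The part of such cells in the values of Vim and Prrx1 was not tested. Of the 10 alpha cell markers, all passed the filter, 2 rose and 0 fell, a share near the 16.2% of all tested genes that rose. Only 1 of these markers rose in the fits without DMSO replicate 3, 4 or 5 or without EPZ011989 replicate 1.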

How the data were processed

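RNA-seq of polyadenylated RNA from αTC1 cells gave whole-number counts per gene, used as deposited by the authors. HISAT2, StringTie, DESeq2 and the mm10 build are listed in the submitters' processing notes, with neither role nor version. No source used here states how strand was handled. The deposited table of normalized values was not used. Among low counts, 1 was the most frequent value (3970), with a lesser peak at 4 (3046) over 3 (2160) and 6 (1313). A floor of 12 counts, 3 fragments of up to 4 counts, was assumed as the cautious choice.

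The 10 genes and the 11 other lists were chosen with earlier results of these data known. Differences were tested with edgeR 4.0.16 (R 4.3.3) by its quasi-likelihood method, with robust dispersion, filterByExpr, TMM factors and treatment as the only term, in all 9 libraries. P-values were adjusted by Benjamini-Hochberg over 14754 genes, and calls were made at 0.05. Each SE was derived from the log2 fold change and its F statistic (absolute change over root F). DESeq2 1.42.0, other scaling, other filters, counts divided by 4, a replicate block and omission of libraries were alternatives. On simulated data 85% of 100 genes changed 2-fold and 100% of 100 genes changed 4-fold were recovered for this comparison, among 13908 genes, with 9 false calls. Changes were set only in genes averaging at least 1 CPM with DMSO, so these shares do not cover lower genes such as Vim and Grhl2. Gene positions and merged exon lengths came from GENCODE M21 (GRCm38, the assembly of mm10).

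Of each other list, the text names up to 4 called genes with the smallest p in each direction, and Cdh1, Cdh2, Cdh11, Fn1, Krt8, Krt18, Ovol2 and Grhl1 whether called or not. Gcg, Tgfbr1, Tgfbr2, Ctbp1, Rbfox2, Lox, Mmp14, Dcn, Lum, Cd14, Cd68 and Ptprc were named after their values were seen. Tbxt and Qk were not matched to 1 row. Some genes that this rule names are not reported here. Library totals limit precision for counts near the floor, and floors cover counting error only.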

Additional observations from a re-analysis of the deposited data

Results flagged for a closer look

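In 9 of 87 groups of libraries, over 49 genes, 1 library stood apart from the others of its group. Chance gives about 5%, a share that does not hold for groups where only 1 library had counts, as in 6 of the 9. No excess is read from this count. Among the 10 genes this was Grhl2, at 0.633 CPM in EPZ011989 library 2 against 0.0702 to 0.158 CPM in the other EPZ011989 libraries. Siah1a was lowest in EPZ011989 library 4, at 17 CPM against 18.1 to 18.4 CPM in the others. Cd14 was lowest in DMSO library 3, at 3.6 CPM against 5 to 5.26 CPM in the other DMSO libraries. The remaining 6 are single libraries with a few counts where the rest of the group had 0, all below the floor of 12 counts. They were Cdh1 at 0.053 CPM and Dcn at 0.106 CPM in EPZ011989 library 1, Krt18 at 0.0528 CPM and Lum at 0.0659 CPM in EPZ011989 library 3, Ptprc at 0.0561 CPM in EPZ011989 library 4, and Tead4 at 0.0675 CPM in DMSO library 4.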

How the results depend on the processing

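Vim and Snai2 stayed called higher under all 18 alternatives. Zeb1 was called under none of 18 and Grhl2 under none of the 16 that tested it. Over the fits that leave out libraries, the log2 fold change ranged from 4.16 to 4.81 for Vim, 0.51 to 0.63 for Snai2, 0.01 to 0.27 for Zeb1, -0.56 to -0.26 for Zeb2 and -0.83 to 0.79 for Grhl2. Zeb2 was called lower without EPZ011989 replicate 2 (-0.56) and without EPZ011989 replicates 2 and 4 (-0.46). Grhl2 turned negative without DMSO replicate 1 (-0.02), DMSO replicate 4 (-0.10), EPZ011989 replicate 2 (-0.83) or EPZ011989 replicates 2 and 4 (-0.57). The cause was not tested. Genes called lower over the whole table numbered 1174, 776 with upper-quartile factors, and 781 to 2377 with 1 library left out, the extremes without EPZ011989 replicates 3 and 2. The share of calls that were higher was 67%, 77.9% with upper-quartile factors, 75.6% with library size alone, 76.7% with the replicate block, 62.4% with the 1 CPM filter, 58.8% without EPZ011989 replicates 2 and 4 and 55.3% without EPZ011989 replicate 2, and lay between 55.3% and 77.9% in all 18. Replicate numbers did not pair the libraries: same-numbered deviations correlated at -0.0985 to 0.0302, and none matched its own number best. The replicate block called 1550 genes higher and 471 lower, and kept Vim and Snai2. Genes below the floor (Snai1, Twist1, Epcam, Esrp1 and Esrp2) are limited by depth.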
